A study of Mus musculus with 51 samples.

Results

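Wnt ligands, the R-spondin Rspo1 and their modulators were followed in mouse mammary gland (MG) after fractionated whole-body irradiation. The genes listed were the ligands Wnt4, Wnt5a and Wnt5b, Rspo1, the receptor Fzd2, the secreted inhibitors Sfrp1 and Sfrp2, the feedback target Axin2 and the transcription factor Lef1. Every probe set annotated to one of these symbols alone was taken, which gave 13 of the 22626 probe sets of the array and 8 of the 9 genes. Sfrp1 had 3 probe sets, each annotated to Serinc3 as well, and was not analysed here. In GRCm38.p6 the genes lie at chr4:124986401-125009102 (Rspo1), chr4:137277635-137299501 (Wnt4), chr14:28504543-28527448 (Wnt5a), chr6:119432531-119544824 (Wnt5b), chr11:102604431-102608058 (Fzd2), chr3:83765750-83774314 (Sfrp2), chr11:108917828-108950783 (Axin2) and chr3:131110297-131224357 (Lef1). The part of each transcript that a probe set reads was not analysed here. The values cover all 43 MG arrays among the 51 arrays of the study, and the blood arrays were not used.

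Wnt proteins are secreted, lipid-modified ligands that bind Frizzled receptors, and in the canonical branch they stabilise β-catenin, which acts with LEF and TCF factors on target genes. R-spondins raise the sensitivity of cells to Wnt by keeping Frizzled receptors at the cell surface, whereas secreted Frizzled-related proteins bind Wnts outside the cell. In the mouse MG, Wnt4 is made by hormone-sensing luminal cells downstream of progesterone and drives side branching, Rspo1 is a luminal product that acts with Wnt4 on basal stem cells, and Wnt5a is a mostly non-canonical ligand that limits branching.

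Virgin female BALB/c and C57BL/6 mice received 4 weekly exposures from 8 weeks of age. The high dose (HD) was 1.8 Gy and the low dose (LD) 7.5 cGy per exposure, and sham mice were handled without irradiation. MGs were taken 4 hr or 1 month after the last exposure, with the inguinal lymph node removed, and each array held RNA of 1 mouse. There were 4 arrays in each HD group and in each LD group except BALB/c LD 1 month, which had 2, and 3 sham arrays per group except C57BL/6 sham 1 month, which had 4. All values come from whole tissue, in which fewer cells of a type and less RNA per cell cannot be told apart. Whole-gland markers were present in every group, with luminal epithelial markers averaging between 8.23 and 10.55, fibroblast markers between 12.40 and 12.85, and adipocyte markers between 12.28 and 12.80 (log2).

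Values are log2 signals after robust multi-array averaging (RMA), so a difference of 1 is a doubling, and levels of different probe sets are not compared. Array medians over all probe sets lay between 6.16 and 6.36. On 7 arrays the mean of the skeletal muscle, B cell or epidermis markers stood more than 2 log2 units above the median MG array. These were BALB/c HD 4 hr replicate 1, BALB/c LD 4 hr replicates 1 and 2, BALB/c sham 4 hr replicate 1, BALB/c HD 1 month replicates 1 and 3, and C57BL/6 sham 1 month replicate 2. Values without these 7 arrays are given where a call changes. Each strain was run on a plate of its own, so strain and plate cannot be told apart, and the dose groups sat in different plate columns, with sham in columns 1 to 5 and irradiated MGs in columns 5 to 12. Tests are limma contrasts of group means over all probe sets, with Benjamini-Hochberg adjusted p, and a probe set is called at an adjusted p under 0.05. The thresholds of the study, a change in either direction of over 0.58 log2 units and, before adjustment, p under 0.1 for LD or under 0.01 for HD, are given as a second count.

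RefSeq promoter windows (GRCm38.p6) were matched for 6 of the 8 measured genes, in 11 windows, and the 250 bases before the start are considered. They are shown for Wnt4, the ligand whose difference between HD and LD is described first, and for Rspo1 and Wnt5b, whose levels varied together across arrays. Capitals mark the TCF/LEF core CTTTGAT and the GC box GGGCGG on either strand, and overlapping GC boxes were counted singly. CTTTGAT is found in 3.21% of all 32851 such windows and GGGCGG in 32.7%.
Rspo1 (chr4:124986180-124986429, plus strand): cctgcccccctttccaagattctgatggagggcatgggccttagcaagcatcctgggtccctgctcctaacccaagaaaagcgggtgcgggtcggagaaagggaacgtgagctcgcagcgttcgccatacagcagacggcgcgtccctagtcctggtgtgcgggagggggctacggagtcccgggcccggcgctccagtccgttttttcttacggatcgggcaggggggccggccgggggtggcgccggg
Wnt4 (chr4:137277385-137277634, plus strand): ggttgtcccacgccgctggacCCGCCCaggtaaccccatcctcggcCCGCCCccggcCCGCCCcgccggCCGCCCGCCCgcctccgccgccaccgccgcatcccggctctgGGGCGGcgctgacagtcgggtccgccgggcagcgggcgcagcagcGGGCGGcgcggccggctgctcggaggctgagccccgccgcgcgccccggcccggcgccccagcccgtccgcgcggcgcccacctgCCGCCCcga
Wnt5b (chr6:119449387-119449636, minus strand): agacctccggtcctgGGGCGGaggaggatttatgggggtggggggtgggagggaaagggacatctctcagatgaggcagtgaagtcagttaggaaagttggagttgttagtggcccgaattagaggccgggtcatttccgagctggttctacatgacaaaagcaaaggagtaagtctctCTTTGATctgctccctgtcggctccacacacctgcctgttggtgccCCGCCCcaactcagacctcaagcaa
The Wnt4 window holds 8 GC boxes and the Rspo1 window none. The Wnt5b window is 1 of 3 for this gene, and it was chosen for display as the only 1 of the 11 with CTTTGAT. It lies within the span of the gene given above. Wnt5a and Fzd2 were not matched. These are matches of letters only.

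Wnt4 separated LD from HD in BALB/c MGs. At 4 hr, Wnt4 (1450782_at) read 6.71, 6.00 and 6.60 in BALB/c sham MGs, 7.34, 7.11, 7.42 and 7.35 in LD MGs, and 6.13, 5.51, 5.35 and 5.27 in HD MGs. All LD values lay above all sham values, and all but 1 HD value lay below them. HD was lower than LD by a log2 fold change of -1.74 (SE 0.26, adjusted p = 0.000753, limma), and this call held without any 1 of the 8 arrays, at adjusted p between 0.000327 and 0.00377. Against sham, the LD difference was 0.87 (SE 0.28, unadjusted p = 0.00554, adjusted p = 0.305) and the HD difference -0.87 (SE 0.28, adjusted p = 0.0751), and neither passed the adjusted threshold. Both comparisons share the 3 sham arrays.

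Without BALB/c HD replicate 1 the HD difference from sham was -1.05 and was called (adjusted p = 0.0354). That was the lowest adjusted p of the 7 arrays left out singly. Over these the difference ran from -1.09 to -0.73, with adjusted p up to 0.23. With plate column added to the model the LD difference of Wnt4 was 0.29, and HD remained lower than LD by -1.49 (adjusted p = 0.037). HD was also called lower than LD without the arrays holding another tissue (adjusted p = 0.0109). In C57BL/6 MGs at 4 hr, Wnt4 read 7.19, 7.37 and 7.23 after sham, 7.57, 7.64, 7.92 and 7.12 after LD, and 6.13, 6.65, 6.63 and 7.33 after HD. The LD and sham values overlapped, and 3 of 4 HD values lay below all sham values. HD differed from LD by -0.88 (SE 0.25, adjusted p = 0.0805), which did not pass.

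At 1 month after HD, the Wnt4 mean lay below the sham mean in BALB/c and above it in C57BL/6, and neither difference was called. BALB/c HD MGs read 5.86, 5.58, 6.28 and 6.36, against 7.40, 7.32 and 6.18 in BALB/c sham MGs, a difference of -0.95 (SE 0.28, unadjusted p = 0.00306, adjusted p = 0.21). C57BL/6 HD MGs read 7.78, 7.46, 7.57 and 7.95, against 7.32, 7.39, 6.98 and 6.82 in C57BL/6 sham MGs, a difference of 0.57 (SE 0.25, unadjusted p = 0.0366, adjusted p = 0.25). The groups overlapped through BALB/c sham replicate 3 in BALB/c, and did not overlap in C57BL/6. The difference between the strains' HD responses was -1.51 (SE 0.39, adjusted p = 0.603) and was not called. Over the 12 groups the mean Wnt4 level was highest in C57BL/6 HD 1 month at 7.69 ± 0.22 (SD, n = 4) and lowest in BALB/c HD 4 hr at 5.57 ± 0.39 (SD, n = 4). Only the 2 lowest steps, between BALB/c sham 4 hr, BALB/c HD 1 month and BALB/c HD 4 hr, exceeded the residual SD of 0.39.

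**Figure D1:**
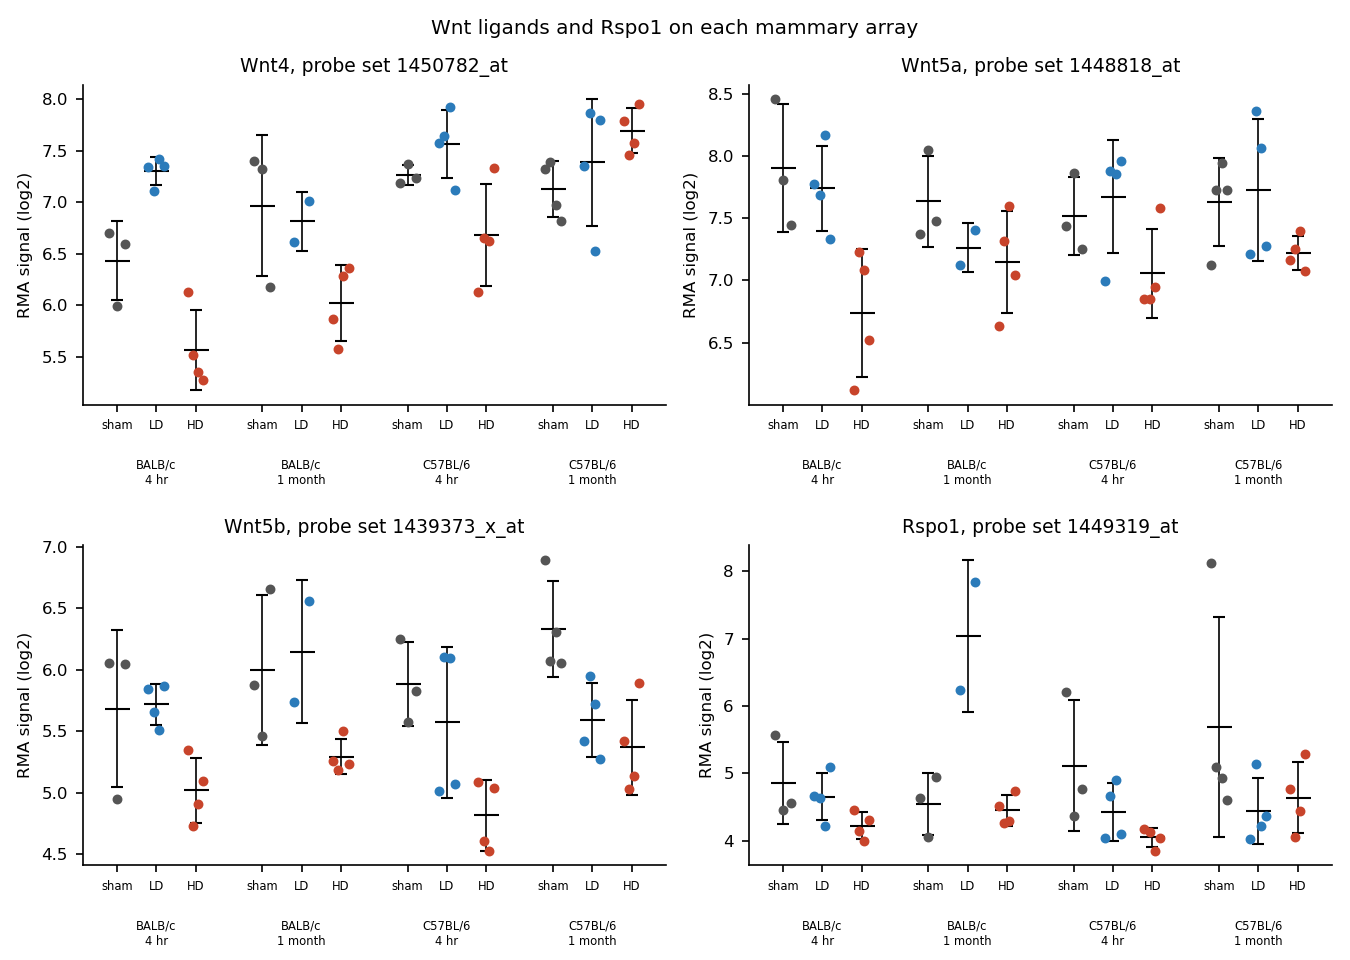
Log2 RMA signal of Wnt4, Wnt5a, Wnt5b and Rspo1 on each of the 43 MG arrays, by strain, time and dose, where points are single mice and bars the mean with SD. The Wnt4 points of BALB/c LD 4 hr lie between 7.11 and 7.42, and those of BALB/c HD 4 hr between 5.27 and 6.13.

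Wnt5a fell in BALB/c MGs 4 hr after HD by both of its probe sets. The brighter one (1448818_at) read 6.12, 7.23, 7.09 and 6.52 in BALB/c HD MGs, against 8.46, 7.81 and 7.44 in BALB/c sham MGs. The other (1436791_at) read 5.37, 6.56, 6.06 and 6.24 in HD MGs, against 7.52, 6.94 and 6.68 in sham MGs. Neither pair of groups overlapped. The log2 fold changes were -1.17 (SE 0.29, adjusted p = 0.0296) and -0.99 (SE 0.26, adjusted p = 0.0366). Across arrays the probe sets had r = 0.88.

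BALB/c LD 4 hr MGs read 7.77, 7.69, 8.17 and 7.33 for 1448818_at, overlapping sham, and HD was lower than LD by -1.01 (SE 0.27, adjusted p = 0.0316) for this probe set and by -1.34 (SE 0.24, adjusted p = 0.00298) for 1436791_at. These are the same HD arrays as in the sham comparison. The call of 1448818_at against LD was lost without HD replicates 1 or 4 or LD replicates 1, 2 or 3, at adjusted p between 0.0667 and 0.0821, without the arrays holding another tissue (-0.81, adjusted p = 0.168) and with plate column in the model (-1.27, adjusted p = 0.0857), whereas 1436791_at stayed called in both (adjusted p = 0.0358 and 0.0436). The call against sham rested on few arrays. For 1448818_at the adjusted p was 0.061 and 0.0816 when HD replicates 1 and 4 were left out in turn, and 0.139 and 0.0723 for sham replicates 1 and 2. For 1436791_at it was 0.0703, 0.0798 and 0.0627 without HD replicates 1, 3 and 4, and 0.159 and 0.0817 without sham replicates 1 and 2. HD replicate 1 and sham replicate 1 are 2 of the arrays with muscle transcripts, and without the arrays holding another tissue the differences were -0.68 and -0.52 (adjusted p = 0.223 and 0.277), with 3 HD and 2 sham arrays left. With plate column in the model they were -0.80 and -0.90 (adjusted p = 0.548 and 0.438).

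In C57BL/6 MGs the Wnt5a differences at 4 hr after HD were -0.46 (SE 0.28) and -0.29 (SE 0.27), with overlapping groups and adjusted p of 0.501 and 0.708. At 1 month, HD differences lay between -0.49 and -0.36 in BALB/c and between -0.41 and -0.40 in C57BL/6, and none was called. The difference between strains in the HD response at 4 hr was not called for any member.

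Wnt5b, a ligand close in sequence to Wnt5a, was low after HD in both strains without passing the adjusted threshold. At 4 hr its brighter probe set (1439373_x_at) read 5.08, 4.61, 4.53 and 5.04 in C57BL/6 HD MGs, against 6.25, 5.57 and 5.83 in C57BL/6 sham MGs, groups that did not overlap (-1.07, SE 0.28, adjusted p = 0.0869). Without C57BL/6 sham 4 hr replicate 1 this became -0.88 (adjusted p = 0.34). At 1 month it read 5.42, 5.03, 5.13 and 5.89 in C57BL/6 HD MGs, against 6.89, 6.07, 6.31 and 6.05 in sham MGs, again without overlap (-0.96, SE 0.26, adjusted p = 0.0743).

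The second Wnt5b probe set (1422602_a_at) gave -0.82 (SE 0.24, adjusted p = 0.0805) in that comparison, and -0.55 without C57BL/6 sham 1 month replicate 1. C57BL/6 LD 1 month MGs, at 5.42, 5.95, 5.73 and 5.27 for 1439373_x_at, also lay below all sham values (-0.74, SE 0.26, adjusted p = 0.26), and the difference was -0.55 without sham replicate 1 (adjusted p = 0.498). In BALB/c the HD differences of this probe set were -0.67 (SE 0.28) at 4 hr and -0.71 (SE 0.28) at 1 month, with overlapping groups and adjusted p of 0.174 and 0.366. For 1422602_a_at, BALB/c HD 4 hr MGs read 4.94, 4.87, 4.98 and 5.01, below the 5.55, 5.17 and 5.50 of sham MGs (-0.46, SE 0.14, adjusted p = 0.0607). In BALB/c LD 1 month MGs it read 5.93 and 5.87, above the 5.59, 5.13 and 5.28 of sham MGs (0.57, SE 0.16, unadjusted p = 0.00262, adjusted p = 0.57).

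Rspo1 stood apart on few arrays. The probe set 1449319_at read 6.24 and 7.84 in the 2 BALB/c LD 1 month MGs, against 4.64, 4.05 and 4.95 in BALB/c sham MGs, while BALB/c HD 1 month MGs read 4.51, 4.26, 4.29 and 4.74. Both LD values lay above every other BALB/c MG array, of which the highest was 5.56. The LD difference from sham was 2.49 (SE 0.39, unadjusted p = 4.87e-06) with an adjusted p of 0.11, and HD was lower than LD by -2.59 (SE 0.37, adjusted p = 0.0328).

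The HD call against LD was lost without LD replicate 2 (-1.79, adjusted p = 0.344) and without HD replicates 1, 2 and 4 (adjusted p = 0.1, 0.0833 and 0.0674). The LD difference from sham was 1.70 without LD replicate 2 (adjusted p = 0.485) and 3.29 without LD replicate 1 (adjusted p = 0.00235). Leaving out 1 of the 2 LD arrays leaves a single one, which is then assumed to vary like the other groups. Without the 7 arrays holding another tissue, 2 of them in this HD group, HD differed from LD by -2.54 (adjusted p = 0.125), and with plate column in the model by -2.80 (adjusted p = 0.175). The group mean of 7.04 ± 1.13 (SD, n = 2) was the highest of the 12, and the step to the next, C57BL/6 sham 1 month, was 1.36, the only step above the residual SD of 0.70.

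C57BL/6 sham MGs also held high Rspo1 values. The 1 month sham MGs read 8.12, 5.09, 4.93 and 4.60, and the 4 hr sham MGs 6.21, 4.37 and 4.77. The remaining C57BL/6 arrays lay between 3.85 and 5.29. Against that sham group, C57BL/6 LD 1 month MGs at 4.03, 5.14, 4.22 and 4.37 differed by -1.24 (SE 0.54, adjusted p = 0.346), and by -0.43 without sham replicate 1. The difference between the strains' LD responses at 1 month was 3.74 (SE 0.76, adjusted p = 0.138).

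Fzd2, a Frizzled receptor for Wnts, fell in BALB/c MGs 4 hr after HD by all 3 of its probe sets. The brightest, 1418534_at, read 5.72, 5.78, 5.73 and 5.80 in HD MGs, against 6.37, 6.01 and 6.56 in sham MGs (-0.56, SE 0.11, adjusted p = 0.0119). For 1418532_at the HD MGs read 5.86, 5.83, 5.24 and 5.68, against 6.85, 6.59 and 6.50 in sham MGs (-0.99, SE 0.17, adjusted p = 0.00365). In both, every HD value lay below every sham value.

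The third probe set, 1418533_s_at, read 5.34, 5.33, 4.66 and 4.89 in HD MGs, against 6.00, 5.86 and 5.89 in sham MGs (-0.86, SE 0.21, adjusted p = 0.027). The groups did not overlap. The calls of 1418532_at and 1418534_at held without any 1 of the 7 arrays, at adjusted p between 0.00295 and 0.0498, whereas that of 1418533_s_at had adjusted p of 0.0834 and 0.0752 without HD replicates 3 and 4, and 0.0901 and 0.0706 without sham replicates 1 and 2. Without the arrays holding another tissue, 1418532_at stayed called (-0.96, adjusted p = 0.019), and 1418534_at (-0.52, adjusted p = 0.0867) and 1418533_s_at (-0.91, adjusted p = 0.0876) did not. With plate column in the model none was called, at -1.04, -0.66 and -1.16 for 1418532_at, 1418534_at and 1418533_s_at.

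HD also differed from LD at 4 hr for all 3 Fzd2 probe sets in BALB/c. LD MGs read 6.27, 6.80, 6.11 and 6.28 for 1418532_at and 6.39, 6.59, 6.35 and 6.28 for 1418534_at, above all HD values, and HD was lower by -0.71 (SE 0.15, adjusted p = 0.0104) and -0.65 (SE 0.10, adjusted p = 0.00138). For 1418533_s_at HD was lower by -0.82 (SE 0.20, adjusted p = 0.0178), and this call was lost without HD replicates 3 or 4 or LD replicates 1, 2 or 4, at adjusted p between 0.0504 and 0.0692. None of the 3 was called against LD without the arrays holding another tissue (adjusted p between 0.0764 and 0.17) or with plate column in the model (between 0.0509 and 0.232).

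In C57BL/6 MGs at 4 hr, 1418534_at read 5.40, 5.75, 5.77 and 6.11 after HD, against 6.53, 6.57 and 6.37 after sham, without overlap (-0.73, SE 0.19, adjusted p = 0.0702). Against LD MGs, at 5.96, 6.72, 6.62 and 6.71, it was lower by -0.75 (SE 0.17, adjusted p = 0.0332), and the groups overlapped through LD replicate 1. That call was lost without HD replicates 1, 2 or 3 or LD replicates 2, 3 or 4, at adjusted p between 0.0711 and 0.15, and with plate column in the model (-0.38, adjusted p = 0.476). The difference from sham was called without HD replicate 4 (-0.85, adjusted p = 0.0369). At 1 month the HD differences from sham in C57BL/6 lay between -0.51 and -0.48 for the 3 probe sets, with adjusted p between 0.103 and 0.25.

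**Figure D2:**
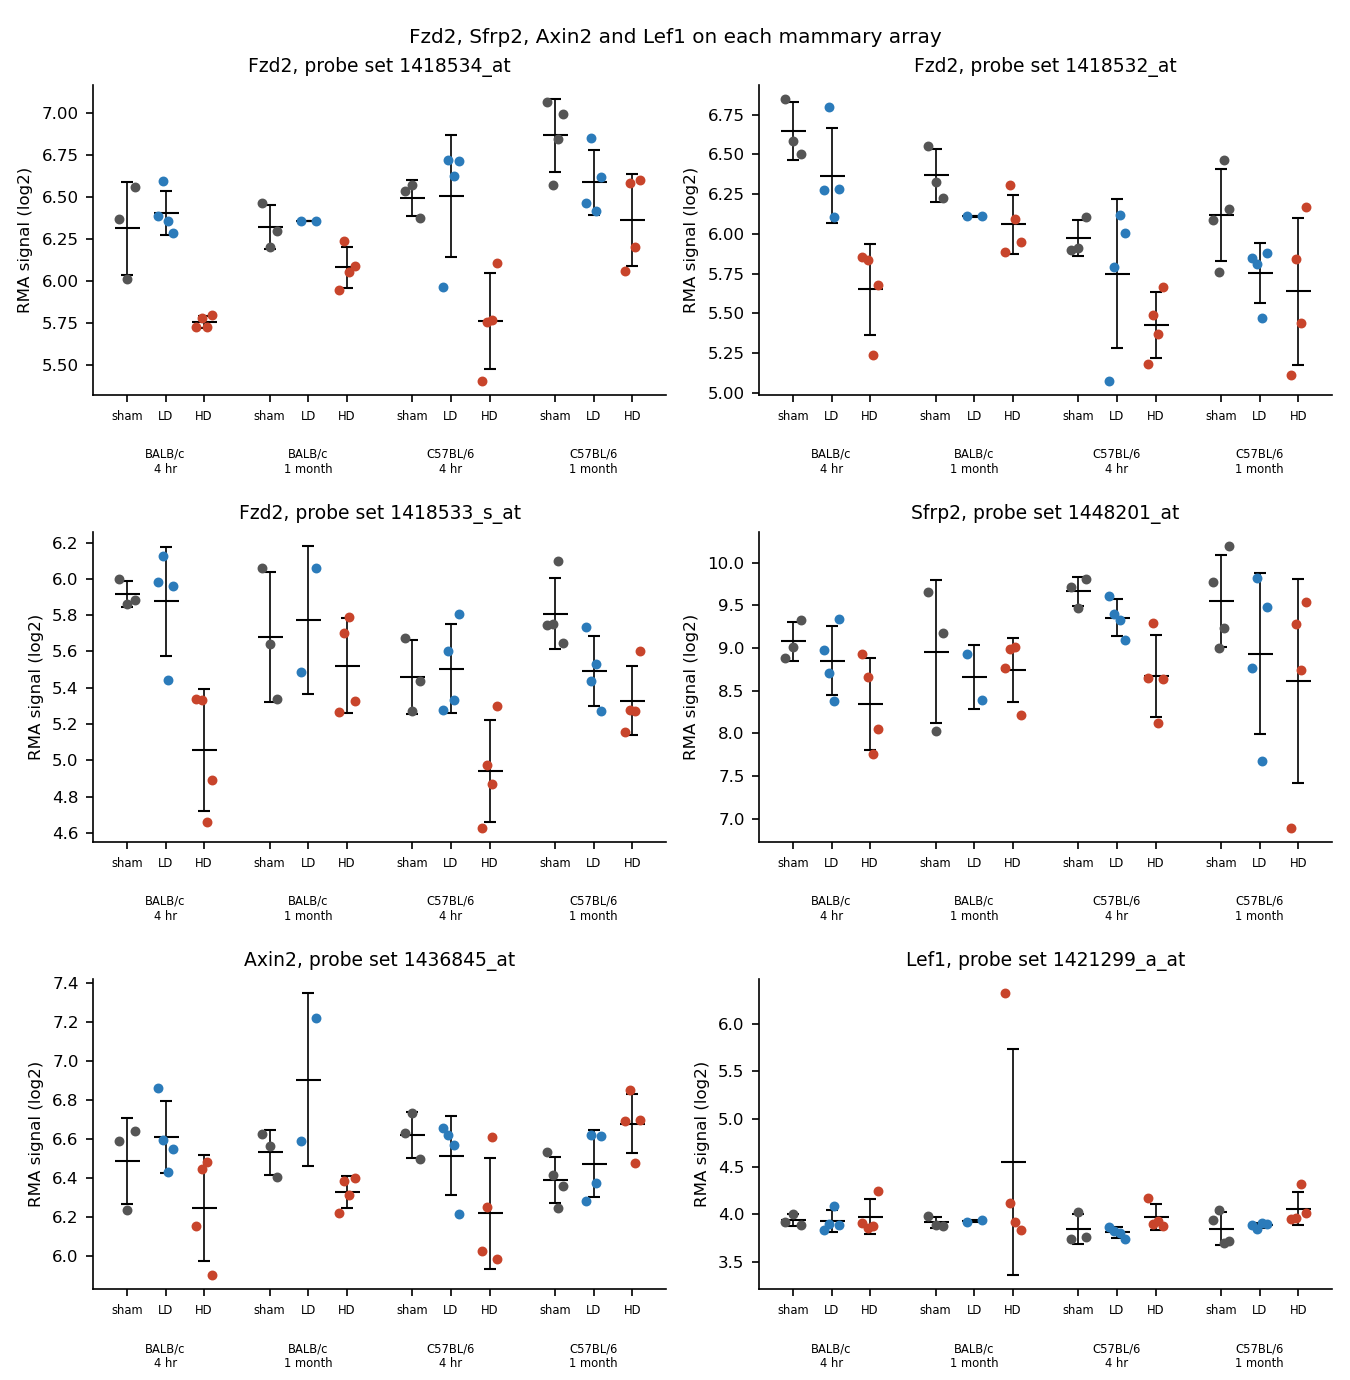
Log2 RMA signal of the 3 Fzd2 probe sets, Sfrp2, Axin2 (1436845_at) and Lef1 on each of the 43 MG arrays, by strain, time and dose, where points are single mice and bars the mean with SD. The BALB/c HD 4 hr points of Fzd2 1418534_at lie between 5.72 and 5.80, below all 3 BALB/c sham 4 hr points.

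Sfrp2, a secreted inhibitor made mainly by stromal cells, had a wide spread and no call. At 4 hr it read 8.65, 9.30, 8.12 and 8.64 in C57BL/6 HD MGs, against 9.71, 9.48 and 9.81 in sham MGs, without overlap (-0.99, SE 0.50, adjusted p = 0.414). BALB/c HD MGs read 8.92, 8.66, 7.76 and 8.05, against 8.89, 9.01 and 9.33 in sham MGs, and overlapped through HD replicate 1 (-0.73, SE 0.34, adjusted p = 0.229). At 1 month the C57BL/6 HD values ran from 6.89 to 9.54 and the sham values from 9.00 to 10.20. No step between neighbouring group means of Sfrp2 exceeded the residual SD of 0.63.

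Axin2, which is switched on by β-catenin and then restrains it, had no call. Its brighter probe set (1436845_at) had group means between 6.22 and 6.91, and after HD at 4 hr it differed from sham by -0.24 (SE 0.16, adjusted p = 0.415) in BALB/c and -0.40 (SE 0.14, adjusted p = 0.202) in C57BL/6. The highest mean was that of BALB/c LD 1 month, from values of 6.59 and 7.22. The second probe set (1421341_at) stayed between 4.14 and 4.72 on all arrays, and the 2 had r = 0.15 across arrays.

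Lef1, a partner of β-catenin that is also abundant in lymphocytes, stayed between 3.70 and 4.32 on 42 of the 43 arrays. The other was BALB/c HD 1 month replicate 1, at 6.32. On that array the B cell markers stood 3.56 and the T cell markers 2.87 log2 units above the median MG array. The Lef1 difference of BALB/c HD 1 month from sham was 0.63 (SE 0.38, adjusted p = 0.586). Across arrays Lef1 had r = 0.90 with the B cell markers, and 0.04 without the 2 arrays farthest from the median.

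Counted over the members, HD at 4 hr in BALB/c gave the most calls against sham. There 12 of 13 probe sets were lower and their median difference was -0.67, beside -0.00 over all probe sets, and 5 probe sets of 2 genes, Wnt5a and Fzd2, were called, all lower, where 5.14% of all probe sets were called in either direction. In C57BL/6 11 of 13 were lower, with a median of -0.55, beside -0.00 over all. None was called, against 0.716% of all probe sets. There 7 members had an unadjusted p under 0.05, beside 2939 of all 22626 probe sets. The study's thresholds were passed by 5 members, all lower, in BALB/c (3.71% of all) and by 2, both lower, in C57BL/6 (1.82% of all).

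After LD no member was called in any of the 4 comparisons, and neither was any probe set of the array in BALB/c 4 hr (0%), BALB/c 1 month (0%), C57BL/6 4 hr (0%) or C57BL/6 1 month (0%). Members at an unadjusted p under 0.05 numbered 1, 2, 0 and 3 in that order, beside 2154, 1565, 1117 and 2901 of all 22626 probe sets. By the study's thresholds 1 member passed in BALB/c 4 hr, Wnt4 (1.5% of all), 1 in BALB/c 1 month, Rspo1 (1.1% of all), none in C57BL/6 4 hr (0.345% of all) and 2 in C57BL/6 1 month, Rspo1 and Wnt5b, both lower (1.72% of all).

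At 1 month after HD no member was called in BALB/c (0.0177% of all) or in C57BL/6 (0.915% of all). Members at an unadjusted p under 0.05 numbered 4 and 8, beside 2392 and 3938 of all 22626 probe sets. By the study's thresholds Wnt4 passed in BALB/c (1.34% of all), and both Wnt5b probe sets passed in C57BL/6 (1.87% of all). Of the 13 members, 11 were lower in BALB/c and 9 in C57BL/6.

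**Figure D3:**
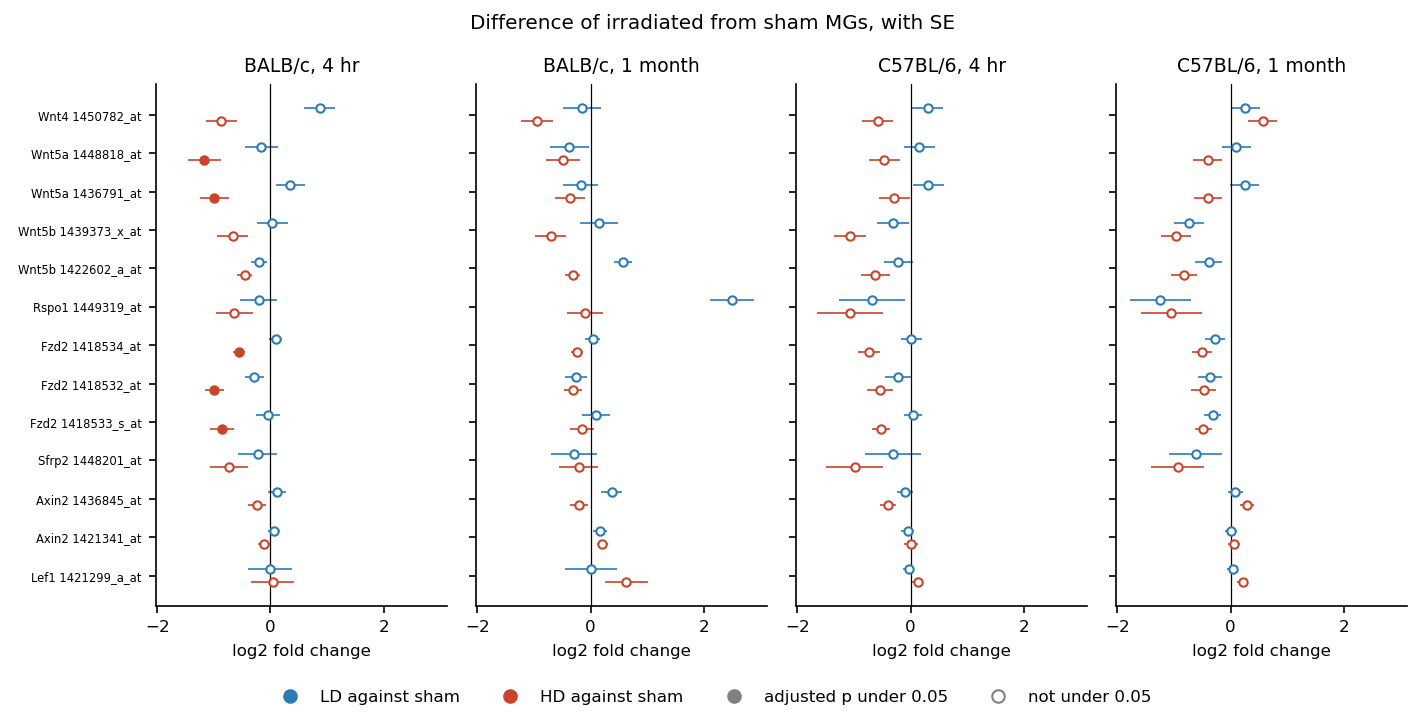
Log2 fold change with SE of the 13 probe sets in LD and HD MGs against sham, by strain and time, where filled points have an adjusted p under 0.05 in limma. The 5 filled points are the Wnt5a and Fzd2 probe sets of BALB/c HD 4 hr, between -1.17 and -0.56.

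HD set directly against LD at 4 hr called 6 probe sets of 3 genes, Wnt4, Wnt5a and Fzd2, all lower, in BALB/c (7.42% of all probe sets) and 1, Fzd2, lower, in C57BL/6 (1.43% of all). At 1 month it called Rspo1 in BALB/c (0.00884% of all) and none in C57BL/6 (0% of all). In C57BL/6, 1 member had an unadjusted p under 0.05, beside 2076 of all 22626 probe sets. Strain differences of the response were called for no member after LD at 4 hr (0% of all), HD at 4 hr (0% of all), LD at 1 month (0% of all) or HD at 1 month (0% of all). In that order 0, 0, 2 and 2 members had an unadjusted p under 0.05, beside 955, 1404, 1935 and 1213 of all 22626 probe sets.

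Among sham MGs, time made no call in BALB/c (0% of all) or C57BL/6 (2.84% of all). At an unadjusted p under 0.05 there were 0 and 1 members, beside 1446 and 4062 of all 22626 probe sets. BALB/c against C57BL/6 sham MGs called 2 of 13 members (9.14% of all), both of Fzd2 and in opposite directions. Fzd2 1418532_at averaged 6.51 in BALB/c and 6.05 in C57BL/6 (0.46, SE 0.11, adjusted p = 0.019), and 1418534_at averaged 6.32 in BALB/c and 6.68 in C57BL/6 (-0.36, SE 0.10, adjusted p = 0.0475). The mean of the 3 Fzd2 probe sets gave 0.09 (adjusted p = 0.594). The call of 1418532_at was lost without BALB/c sham 1 month replicate 1 (adjusted p = 0.0512), and that of 1418534_at without any of 11 of the 13 arrays, at up to 0.109. Wnt4 was not called, at 6.70 in BALB/c and 7.19 in C57BL/6 (-0.49, SE 0.20, adjusted p = 0.145).

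The rest of the pathway was taken from 6 lists with 71 measured genes, each by its brightest probe set. The shares set beside them are over every probe set of the array, dim and unnamed ones included, so they are only a rough guide. In BALB/c 4 hr after HD 1 of them rose and 7 fell, where 5.14% of all probe sets were called. Among ligands, Wnt2, a stromal ligand, fell (-1.23, SE 0.32, adjusted p = 0.0373) and Wnt2b rose (0.36, SE 0.09, adjusted p = 0.037), and the other 14 were not called. The Wnt2b means were 3.84 in sham and 4.20 in HD MGs, near the dim end of the array. Of 13 receptors 3 fell, among them the co-receptor Lrp6 (-0.54, SE 0.12, adjusted p = 0.0212) and Ror2, a receptor for Wnt5a (-0.78, SE 0.18, adjusted p = 0.0219).

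β-Catenin itself (Ctnnb1) fell by a smaller amount (-0.33, SE 0.07, adjusted p = 0.014), the only call among 18 intracellular components. Of 10 target genes Myc (-0.96, SE 0.25, adjusted p = 0.0344) and Id2 (7.74 in HD MGs and 8.74 in sham MGs, adjusted p = 0.0396) fell. None of the 4 measured genes around R-spondin (Rspo2, its receptors Lgr5 and Lgr6, and the ligase Rnf43) and none of 10 secreted inhibitors was called. In C57BL/6 4 hr after HD only Id2 was called among the 71 (-1.27, SE 0.19, adjusted p = 0.00137), beside 0.716% of all probe sets. No pathway gene was called in the other 6 comparisons with sham.

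HD against LD at 4 hr called 6 of the 71 pathway genes, all lower, in BALB/c, where 7.42% of all probe sets were called, so that the share of the pathway was near that of the array. They included the receptors Fzd6 (-0.85, SE 0.18, adjusted p = 0.00877) and Ror2 (-0.69, SE 0.17, adjusted p = 0.019), the kinase Csnk1a1 (-0.25, SE 0.06, adjusted p = 0.0173), Myc (-0.99, SE 0.23, adjusted p = 0.0159) and the feedback inhibitor Nkd2 (-0.67, SE 0.18, adjusted p = 0.0297). In C57BL/6 it called Id2 alone (-1.16, SE 0.18, adjusted p = 0.00168), beside 1.43% of all. Sham MGs of the strains differed for 7 of the 71, with 3 higher and 4 lower in BALB/c, a share near the 9.14% of all probe sets.

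Luminal epithelial markers (keratins, Epcam, claudins and the like) were lower in the same MGs. In BALB/c 4 hr after HD all 9 fell, their median difference was -1.60, and their mean level was 8.92, 8.04, 8.57 and 7.40 in HD MGs, against 10.08, 9.48 and 9.95 in sham MGs. All 7 basal markers were lower, with 1 called and a median of -0.54, as were 4 of 5 fibroblast markers, with 1 called and a median of -0.32. In C57BL/6 all 9 luminal markers were lower, with 1 called and a median of -0.66, as were all 7 basal markers, with none called and a median of -0.32. The hormone-sensing luminal markers, 6 measured, had medians of -0.12 and 0.02 in BALB/c and C57BL/6, with none called. Prlr, Areg and Calca, also among the 9 listed, had no probe set annotated to them alone and are missing from these medians. By the study's qPCR, Areg was below sham in every BALB/c HD mouse at 4 hr. Against LD at 4 hr, BALB/c HD MGs had all 9 luminal markers called lower (median -1.85) and 2 of the 6 hormone-sensing markers, Foxa1 (-1.23, adjusted p = 0.0211) and Pgr, the progesterone receptor (-0.61, adjusted p = 0.0247).

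At 1 month no marker of these lists was called against sham. BALB/c HD MGs, in which the Wnt4 mean was low, had all 9 luminal markers lower (median -1.22), with mean levels between 8.61 and 9.60 in HD MGs and between 10.11 and 10.29 in sham MGs, and all 7 basal markers lower (median -0.37). C57BL/6 HD MGs, in which Wnt4 was above all sham values, had 8 of 9 luminal markers lower (median -0.36), with mean levels between 9.85 and 10.28 in HD MGs and between 10.22 and 11.02 in sham MGs. Basal markers, beside Wnt5b in C57BL/6, were lower for 7 of 7 after HD (median -0.28) and 6 of 7 after LD (median -0.70). Their mean level lay between 8.15 and 8.48 in C57BL/6 LD MGs and between 8.06 and 8.64 in HD MGs, against 8.59 to 9.33 in sham MGs. The part of these shifts in the member values was not tested at either time.

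BALB/c LD 4 hr MGs, in which Wnt4 was high, had 8 of 9 luminal markers higher with none called (median 0.34), and 4 of 6 hormone-sensing markers higher with none called (median 0.27). BALB/c LD 1 month MGs, in which Rspo1 was high, had medians of -0.06 for luminal and 0.12 for basal markers, with none called. Skeletal muscle markers varied by array within groups, and in BALB/c HD 4 hr their mean level was 11.69 in replicate 1 and between 4.34 and 4.73 in the others.

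**Figure D4:**
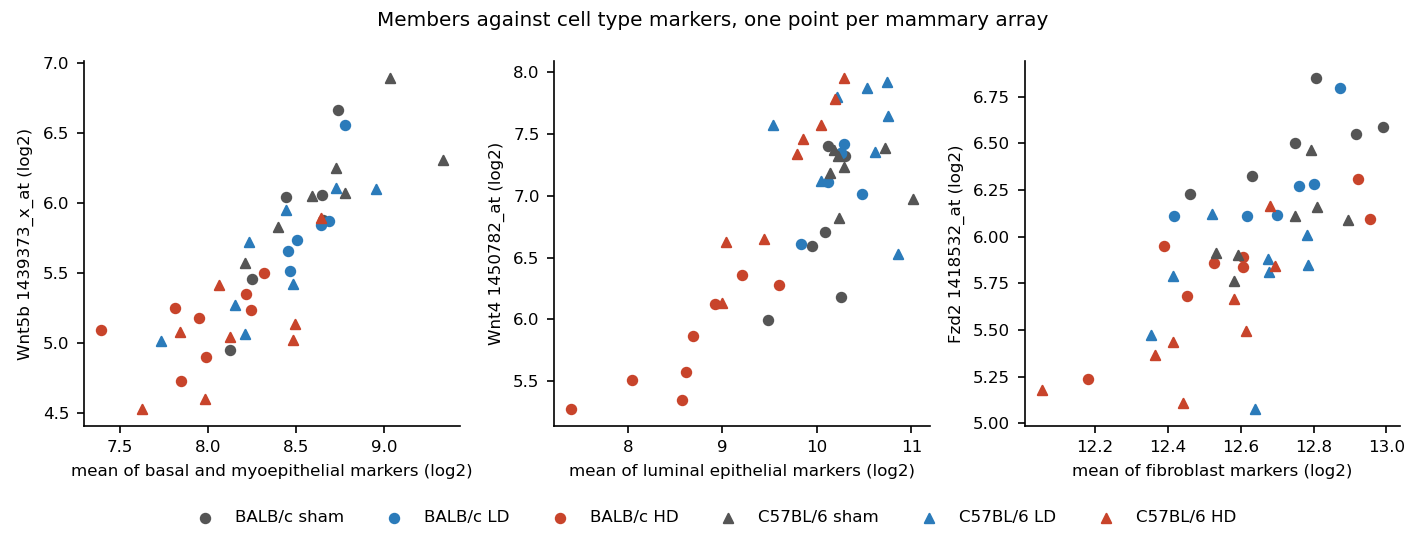
Log2 signal of Wnt5b (1439373_x_at), Wnt4 and Fzd2 (1418532_at) against the mean log2 signal of basal, luminal and fibroblast markers, with 1 point per MG array, circles for BALB/c, triangles for C57BL/6 and colour for dose. The points tend upwards to the right, and after subtraction of each strain's mean r was 0.84 for Wnt5b, 0.74 for Wnt4 and 0.72 for Fzd2.

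Levels across the 43 arrays, after subtraction of each strain's mean were also set against the marker lists. These correlations are descriptions, and the arrays share dose groups and tissue composition. Wnt5b (1439373_x_at) followed the basal markers most closely (r = 0.84, rho = 0.87, and r = 0.83 without the 2 farthest arrays), and kept r = 0.66 within groups. With luminal markers this probe set had r = 0.71 (rho = 0.75, 0.76), and 0.47 within groups. The second Wnt5b probe set, 1422602_a_at, had r = 0.64 with basal markers (rho = 0.69, 0.61), and 0.43 within groups. Its r with luminal markers was 0.51. Wnt4 followed luminal (r = 0.74, rho = 0.66, 0.67 without the 2 farthest) and hormone-sensing luminal markers (r = 0.70, rho = 0.66, 0.68), with 0.40 and 0.54 within groups.

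Wnt5a (1448818_at) had r = 0.67 with luminal markers (rho = 0.66, 0.68 without the 2 farthest) and 0.37 within groups, and 1436791_at had 0.64 (rho = 0.69, 0.65) and 0.18 within groups. Sfrp2 followed fibroblast markers (r = 0.60, rho = 0.60, 0.63) with 0.53 within groups. The Fzd2 probe sets had like values with several lists. For 1418532_at r was 0.72 with fibroblast markers (rho = 0.71, 0.72, and 0.57 within groups) and 0.68 with basal markers, and for 1418534_at it was 0.75 with basal markers (rho = 0.73, 0.75, and 0.43 within groups) and 0.70 with luminal markers. For 1418533_s_at it was 0.73 with luminal, 0.72 with fibroblast and 0.71 with basal markers, with 0.35, 0.56 and 0.40 within groups. Rspo1 was nearest to basal markers (r = 0.58, rho = 0.73, 0.58), with 0.41 within groups.

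Among pairs of members, Rspo1 and Wnt5b varied together, with r = 0.76 for 1422602_a_at (rho = 0.68, 0.65 without the 2 farthest, 0.66 within groups) and 0.73 for 1439373_x_at (rho = 0.82, 0.68, 0.70 within groups). Wnt5b 1439373_x_at and Fzd2 1418534_at had r = 0.73 (rho = 0.73, 0.73), with 0.36 within groups. The other pairs of Wnt5b and Fzd2 probe sets had r between 0.43 and 0.63. Wnt4 and Axin2 1436845_at had r = 0.61 (rho = 0.66, 0.51), with 0.33 within groups. With the second and dimmer Axin2 probe set, 1421341_at, Wnt4 had r = -0.01 (rho = -0.02), and -0.17 within groups.

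By the same measure over the 43 arrays, the genes most like Wnt5b were the epithelial factor Ehf (r = 0.92), the secreted Wfdc18 (0.91) and the tight junction gene Tjp3 (0.91). Those most like Wnt4 were Prom2 (0.81), Hspa1b (0.79) and the keratin Krt19 (0.78), and those most like Fzd2 were Fxyd3 (0.83), Sox9 (0.82) and Muc15 (0.82). Rspo1 was closest to Slco1a5 (0.80), Phlda1 (0.79) and Ogfrl1 (0.74), and Wnt5a to Tmprss13, Hexim1 and S100a14 (all 0.71). Sfrp2 was closest to the stromal genes Islr (0.78), Antxr1 (0.77) and Col14a1 (0.74), and Axin2 to Smad7 (0.68), Rpia (0.65) and Usp10 (0.63). Lef1 was closest to the lymphocyte gene Cd27 (0.94), but with r = 0.35 without the 2 farthest arrays.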

How the data were processed

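The authors hybridised MG RNA of single mice to Affymetrix HT_MG-430A arrays and deposited log2 values after RMA, and per the labels' processing notes limma was also used. These log2 values were used as deposited. Probe sets were named from the platform annotation, with symbols updated by gene identifier to GRCm38.p6, and 18003 of 22626 had 1 symbol, 287 several and 4336 none. Older names were matched by synonym only where the name is not itself a current symbol.

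Group means were fitted with limma 3.58.1 in R 4.3.3, per strain for dose and time comparisons, over all 43 MG arrays for strain differences of a response and over the 13 sham arrays for the strain comparison, with p adjusted over all probe sets. Replicate numbers do not mark shared animals, and arrays of the same number had a mean correlation of deviations of 0.0145 in BALB/c and 0.0124 in C57BL/6. The method was tested on simulated data with independent noise and planted shifts, which held no plate, tissue or outlying-array effects. The number of arrays limits the precision. Every probe set of the members is named, with other Wnt genes limited to the 2 with the smallest p per list and comparison. The members and lists were chosen with earlier results of these data known, and Wnt4 is among the genes the study picked from these arrays. The study also reported qPCR of Wnt4 in BALB/c MGs at 4 hr, mostly in the mice of the arrays. By qPCR it was above sham in every LD mouse and below sham in most HD mice. Figures were drawn with matplotlib 3.10.9 in Python.

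Alternatives were a replicate block, array weights, a filter at a mean log2 of 5, median centring, quantile normalization, 1 value per gene, plate column or row, other sets of arrays in the fit, and arrays left out singly or for transcripts of another tissue.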

Additional observations from a re-analysis of the deposited data

Results flagged for a closer look

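Single arrays stood apart from the other 3 of their group in 10 of 104 groups of 4 values tested by their gap relative to the range of the group. Chance gives about 1 in 20 for independent, normally distributed values, but these groups share arrays. The share of such groups over all probe sets is not given here, so the count is not read as a result about the members. For Rspo1 the array that stood apart was C57BL/6 sham 1 month replicate 1 at 8.12, with the others between 4.60 and 5.09. For Wnt5a 1448818_at they were C57BL/6 HD 4 hr replicate 4 at 7.59 and C57BL/6 LD 4 hr replicate 1 at 6.995. For Wnt5b 1422602_a_at it was BALB/c HD 1 month replicate 3 at 5.20. For Fzd2 they were C57BL/6 LD 4 hr replicate 1 at 5.96 (1418534_at) and C57BL/6 LD 1 month replicate 3 at 5.47 (1418532_at). Lef1 had such an array in all 4 HD groups. At 4 hr these were BALB/c replicate 4 at 4.25 and C57BL/6 replicate 1 at 4.17, and at 1 month BALB/c replicate 1 at 6.32 and C57BL/6 replicate 3 at 4.32.

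In 4 cases among the member probe sets, all irradiated arrays of BALB/c lay on 1 side of their sham mean and all those of C57BL/6 on the other. The share of all probe sets with this pattern is not given here. Tested as the difference between the strains' responses in limma, none was called. The differences were 3.74 for Rspo1 (adjusted p = 0.138) and 0.32 for Fzd2 1418534_at (adjusted p = 0.771) after LD at 1 month, and -1.51 for Wnt4 (adjusted p = 0.603) and -0.49 for Axin2 1436845_at (adjusted p = 0.908) after HD at 1 month. The LD cases rest on the 2 arrays of BALB/c LD 1 month. For Fzd2 1418534_at both of these read 6.36, against a BALB/c sham mean of 6.32.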

How the results depend on the processing

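Counts here are member genes of 8. The share of all probe sets called or passing under each alternative is not given here. A gained or lost member is therefore not told apart from a change over the whole array. With all arrays and the values as deposited, adjusted p called 2 genes in BALB/c HD 4 hr against sham, 3 in HD against LD at 4 hr, 1 in HD against LD at 1 month, 1 in C57BL/6 HD against LD at 4 hr and 1 between the sham strains. Replicate numbers do not pair the samples, and with a replicate block these were 1 in BALB/c HD 4 hr, 1 in C57BL/6 HD 4 hr and 0 in BALB/c HD against LD at 1 month. BALB/c HD against LD at 4 hr kept 3 genes without any 1 array. With plate column in the model, and without the arrays holding another tissue, it lost Fzd2 and kept Wnt4 and Wnt5a (1436791_at).

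With the plate column as a covariate, adjusted p called 0 in BALB/c HD 4 hr, 1 in C57BL/6 HD 4 hr, 0 in BALB/c HD against LD at 1 month and 0 in C57BL/6 HD against LD at 4 hr. The study's thresholds then passed 0 in BALB/c LD 4 hr and 0 in BALB/c HD 1 month. In C57BL/6 LD 4 hr, HD 4 hr, LD 1 month and HD 1 month they passed 4, 5, 4 and 4, beside 0, 2, 2 and 1 without the covariate. The share of all probe sets passing with the covariate is not given here. Columns also differed between the dose groups, so these counts are not read as a result about the members. Without the arrays holding another tissue, adjusted p called 1 in BALB/c HD 4 hr and 0 in BALB/c HD against LD at 1 month, and the study's thresholds passed 2 in BALB/c LD 4 hr, 1 in BALB/c HD 4 hr, 0 in BALB/c HD 1 month and 2 in C57BL/6 HD 1 month.

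BALB/c HD against LD at 1 month gave 2 after median centring, 2 after quantile normalization and 0 with the filter on dim probe sets, which leaves Rspo1 out. That filter passed 0 in BALB/c LD 1 month and 1 in C57BL/6 LD 1 month by the study's thresholds. C57BL/6 HD against LD at 4 hr gave 0 after quantile normalization and 0 with 1 value per gene, which also gave 0 between the sham strains, 1 in C57BL/6 LD 1 month by the study's thresholds, and turned the sham strain difference of Fzd2 1418534_at (-0.36) to 0.0869. With only the compared groups in the fit there was 1 call in BALB/c HD 4 hr, 1 in C57BL/6 HD 4 hr, and 0 past the study's thresholds in BALB/c HD 1 month. With all 43 arrays in one fit there was 1 in C57BL/6 HD 4 hr and 1 in C57BL/6 HD 1 month. The causes were not tested.

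Leaving out single arrays gave 1 to 2 in BALB/c HD 4 hr, 0 to 1 in BALB/c LD 1 month, 0 to 2 in BALB/c HD against LD at 1 month, 0 to 1 in C57BL/6 HD 4 hr, 0 to 2 in C57BL/6 HD against LD at 4 hr and 0 to 1 between the sham strains. By the study's thresholds it gave 1 to 2 in BALB/c LD 4 hr, 1 to 4 in BALB/c HD 4 hr, 1 to 2 in BALB/c LD 1 month, 0 to 1 in BALB/c HD 1 month, 1 to 3 in C57BL/6 HD 4 hr, 0 to 3 in C57BL/6 LD 1 month and 1 to 2 in C57BL/6 HD 1 month. Rspo1, Lef1 and Axin2 1421341_at have means under 5, near the dim end of the array, where small differences are hard to measure. Wnt2b and Pgr also had means under 5 in the BALB/c groups between which they were called.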
